A study of Homo sapiens with 6 samples.

Results

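The genes described here are those of the MMP, ADAM and ADAMTS families of zinc proteases and of their inhibitors, the TIMPs. Members were chosen by name alone, as every gene whose symbol is MMP, ADAM, ADAMTS or TIMP followed by a number, which gave 67 of the 37887 genes listed. Among the 67, ADAM5 and ADAM6 are annotated as pseudogenes. All members were measured by RNA-seq in BT-549, an established human triple-negative breast cancer (TNBC) cell line. There were 3 control samples set against 3 in which a short hairpin RNA silenced IRF1 (shIRF1), a transcription factor that drives interferon-stimulated genes. Controls received 0.1% DMSO, and the silenced cells received 500 ng/ml doxycycline (DOX) to switch the hairpin on. The design text names 1 stable BT-549 line carrying an inducible IRF1 hairpin for both groups, whereas the titles of the control samples name a control shRNA, and no sample age, passage or days of treatment are given in the labels. Every silenced sample received DOX and no control did, so the effects of the drug and of the hairpin cannot be told apart. If the titles hold, the groups are also separate lines, and a difference between lines cannot be told apart from silencing either. DOX is known to inhibit the activity of several MMPs, which RNA levels do not measure. Whether DOX alters the RNA of these genes was not tested.

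MMPs are secreted or membrane-bound enzymes that cut collagens and other proteins of the extracellular matrix. ADAMs are membrane-anchored and many of them act as sheddases, releasing the outer part of growth factors, cytokines and receptors from the cell surface. ADAMTS enzymes are secreted and process procollagens, proteoglycans and other matrix proteins, and TIMPs bind and block the active site of these enzymes. In breast tumors and in mesenchymal cell lines such as BT-549, the families are known for matrix remodeling, invasion and control of growth factor signaling. RNA levels do not measure enzyme activity, since most of these proteases are made as inactive precursors.

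IRF1 itself was measured first. Its level was 45.3, 48.1 and 51.5 CPM (counts scaled to the library total) in the 3 control samples and 13.8, 14.9 and 14.6 CPM in the 3 shIRF1 samples. The groups did not overlap, and IRF1 stood at 29.9% of its control mean, a log2 fold change of −1.75 ± 0.062 (SE) with an adjusted p of 4.53e-13. Fold changes here compare shIRF1 with control, so a negative value is lower after silencing. The total count ranged from 55143808, in shIRF1 replicate 2, to 160436234 per sample, and 3 counts, taken as the least number detected, correspond to between 0.0182 and 0.054 CPM. Among values of 2 to 11 counts, 72.1% to 75.2% per sample were even, so the 2 mates of a read pair may have been counted apart. Mesenchymal markers were abundant, with VIM at 918 ± 28.6 CPM in control samples (SD, n = 3). The epithelial markers EPCAM, CDH1, ESRP1 and CLDN4 were at 0.0714, 0.676, 0.730 and 3.455 CPM in control samples. Summed CPM of 4 epithelial markers ranged from 4.08 to 5.65 in control and 5.78 to 6.45 in shIRF1 samples, with CLDN4 higher and ESRP1 lower, and that of 4 mesenchymal markers from 1936 to 2047 and from 1514 to 1616, with 3 of the 4 lower. The part of these shifts in the results below was not tested. Of the receptors that define TNBC, ESR1 and PGR were at or below 0.244 CPM on average in either group, and ERBB2 was present at 50.8 CPM in control and 36.4 CPM in shIRF1 samples.

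Silencing IRF1 was accompanied by changes in both directions across the families, and the 2 members with the smallest adjusted p were lower. ADAM19, a membrane-anchored sheddase, fell to 12.2% of its control level, and TIMP3, the matrix-bound inhibitor, fell to 16.4%. MMP1 and MMP2 fell as well, while MMP9 rose. MMP13 was higher too, but its low counts passed the filter mainly through the silenced group. Among members with the most RNA per kb of exons, changes were smaller, with ADAM9 and ADAM12 rising to 130% and 141% of control and MMP14 not passing the test. In bulk RNA, fewer cells that express a gene and less RNA per cell cannot be told apart.

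Of the 67 members, 8 had no count in any sample, 48 passed the filter on low counts and were tested, and 33 had a mean of at least 1 CPM. Among the 48 tested, 33 (68.8%) passed an adjusted p of 0.05, against 50.5% of all 18851 genes tested. The 33 comprised 14 higher (29.2%, against 24.1% of all genes) and 19 lower (39.6%, against 26.4%), and 15 were not called. With a change of over 2-fold as well, 13 members remained (27.1%, against 7.86%), 6 of them higher (against 3.43%) and 7 lower (against 4.43%). With upper quartile scaling or library size alone the split was 7 higher and 6 lower, and MMP2 then lay just under 2-fold (−0.99 and −0.98 on the log2 scale). The 3 values of one group did not overlap those of the other in 33 of the 48 (56.8% of all genes tested). Among members with a mean of at least 1 CPM, 27 of 33 were called (81.8%, against 63.6%). At that level, 2 members were higher and 5 lower by over 2-fold (21.2% together, against 5.4%). The members called include ADAMTS7 and MMP13, both also among the 13 over 2-fold. The calls of ADAMTS7 and MMP13 partly follow from the filter on low counts. The median log2 fold change of the tested members was 0.017 and that of all genes tested was −0.0025, while the median size of the change, sign aside, was 0.54 for members and 0.28 for all genes. These shares describe the members and were not tested against other genes.

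**Figure D1:**
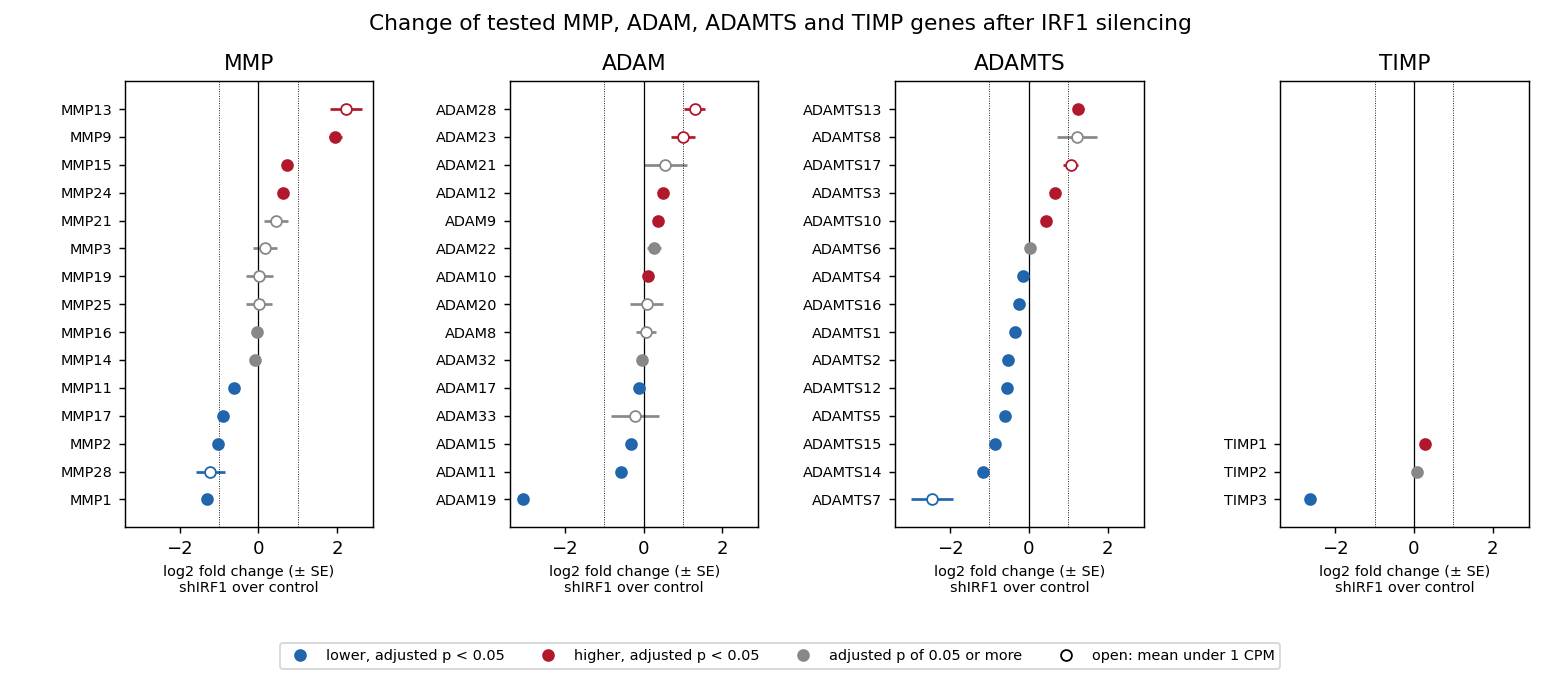
Log2 fold change (x axis, shIRF1 over control, ± SE) of the 48 tested members, 1 row per gene and 1 panel per family, with red for higher, blue for lower and grey for an adjusted p of 0.05 or more. Open circles mark a mean under 1 CPM and dotted lines a 2-fold change, and ADAM19 and TIMP3 lie farthest to the left of the members above 1 CPM.

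The filter on low counts asks for about 0.0802 CPM in at least 3 samples, so a gene present in a single group can pass it through that group. ADAMTS7 did so, with 3 control and 0 shIRF1 samples above that level, and MMP13 and ADAMTS8 passed mainly through the silenced group, with 1 control and 3 shIRF1 samples above it. The calls of ADAMTS7 and MMP13 therefore partly follow from the filter. The members with no count at all were MMP7, MMP20, MMP26, MMP27, ADAM2, ADAM6, ADAM7 and ADAMTS19. A further 11 had some counts but were not tested, namely ADAM5, ADAM18, ADAM29, ADAM30, ADAMTS9, ADAMTS18, ADAMTS20, MMP8, MMP10, MMP12 and TIMP4. The most counts among these were those of MMP10, with 2, 4 and 4 in control and 4, 6 and 20 in shIRF1 samples. Both matrilysins, MMP7 and MMP26, were thus not detectable at this depth.

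ADAM19 was at 107, 108 and 104 CPM in control samples and at 12.4, 14.1 and 12.2 CPM in shIRF1 samples. All 3 silenced samples were far below all 3 controls, and the SD over replicates was 2.41 CPM in control and 1.04 CPM in shIRF1 samples. The log2 fold change was −3.05 ± 0.055 (95% interval −3.17 to −2.93), with an adjusted p of 1.53e-16, the rank of 2 by p among all genes tested. ADAM19, also called meltrin beta, is known to release neuregulin from the membrane. The gene lies at chr5:157395534-157575775 on the minus strand (GRCh38, GENCODE release 29), and 0.805% of its exonic bases are shared with CYFIP2 on the opposite strand.

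TIMP3 was at 8.02, 7.45 and 9.03 CPM in control samples and at 1.32, 1.48 and 1.23 CPM in shIRF1 samples. Every silenced sample was below every control. The log2 fold change was −2.63 ± 0.11 (95% interval −2.86 to −2.40), with an adjusted p of 2.84e-12. TIMP3 differs from other TIMPs in that it stays bound to the matrix and also inhibits ADAM17 and several ADAMTS enzymes. It lies at chr22:32801701-32863043 on the plus strand, within an intron of SYN3, which had 21 counts in all samples together.

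TIMP1 and TIMP2 had more RNA per kb of exons than TIMP3 in every sample, and neither fell. TIMP1, a secreted inhibitor of most MMPs, was at 244, 233 and 293 CPM in control and 328, 289 and 312 CPM in shIRF1 samples. The groups overlapped, since control replicate 3 exceeded shIRF1 replicate 2. TIMP1 passed the test (0.27 ± 0.068, adjusted p = 0.0031), but it did not pass with DESeq2 (adjusted p = 0.0572). TIMP2, which with MMP14 takes part in the activation of pro-MMP2, was at 133, 137 and 147 CPM in control and 144, 147 and 149 CPM in shIRF1 samples. It did not pass the test (0.080 ± 0.045, 95% interval −0.016 to 0.18, adjusted p = 0.16), although it passed with upper quartile scaling (0.0287), with scaling by library size alone (0.018) and without control replicate 3 (0.0232). TIMP4 had at most 8 counts in a sample.

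Both collagenases tested changed, in opposite directions. MMP1, the interstitial collagenase that cuts fibrillar collagens, was at 14.1, 12.5 and 15.4 CPM in control and 6.25, 5.42 and 5.21 CPM in shIRF1 samples. All silenced samples were below all controls, with a log2 fold change of −1.31 ± 0.092 and an adjusted p of 2.56e-09. MMP13, collagenase-3, was at 0.114, 0.057 and 0.067 CPM in control and 0.318, 0.468 and 0.359 CPM in shIRF1 samples. These levels rest on 14, 7 and 10 counts against 40, 26 and 59, and the groups did not overlap (log2 fold change 2.23 ± 0.40, adjusted p = 1.51e-04). A single control sample was above the level of the filter, so this call partly follows from the filter. MMP8, the neutrophil collagenase, was not tested.

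MMP1 and MMP13 lie within a cluster of 9 MMP genes on chromosome 11, from MMP7 at 102520508 to the end of MMP13 at 102955734. MMP1 spans chr11:102789920-102798160 and MMP13 chr11:102942995-102955734, both on the minus strand. Of the 9 genes, 3 were tested. MMP3, stromelysin-1, which lies between them, had 0.332 ± 0.080 CPM in control samples and 0.386 ± 0.089 CPM after silencing, and was not called (0.16 ± 0.31, adjusted p = 0.694). The 3 tested neighbors were thus lower, higher and not called.

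The gelatinases, which cut denatured collagen and basement membrane collagen, also split. MMP2 was at 12.8, 14.4 and 14.2 CPM in control and 6.87, 5.55 and 7.58 CPM in shIRF1 samples. MMP9 was at 0.625, 0.734 and 0.865 CPM in control and 2.93, 2.32 and 3.28 CPM in shIRF1 samples. Neither gene had overlapping groups. MMP2 fell by 1.03 ± 0.095 on the log2 scale (adjusted p = 7.5e-08), and MMP9 rose by 1.95 ± 0.16 (adjusted p = 2.08e-08), from 77, 90 and 129 counts to 369, 129 and 540. Per kb of exons, MMP9 was at 1.22 ± 0.21 and MMP2 at 1.35 ± 0.21 CPM per kb in shIRF1 samples. In control samples MMP9 was at 0.317 ± 0.052 and MMP2 at 2.80 ± 0.17. The exons are those of all annotated transcripts of a gene together, so this scale compares genes only roughly. MMP9 (chr20:46008908-46016561, plus strand) shares 18.4% of its exonic bases with the antisense gene SLC12A5-AS1. The use of strand in counting is not given in the sources used here, so reads of the 2 genes may not be told apart. Leukocytes are a known source of MMP9, and the summed CPM of 4 leukocyte markers ranged from 0.522 to 0.584 in control and from 0.365 to 0.829 in shIRF1 samples, nearly all of it PTPRC. PTPRC, the one of the 4 that was tested, was not called. LYZ, a myeloid marker, had 2, 2 and 0 counts in control and 1, 4 and 8 in shIRF1 samples, and CD3E had 1 count in all, in a shIRF1 sample. The part of leukocyte RNA in the level of MMP9 was not tested.

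**Figure D2:**
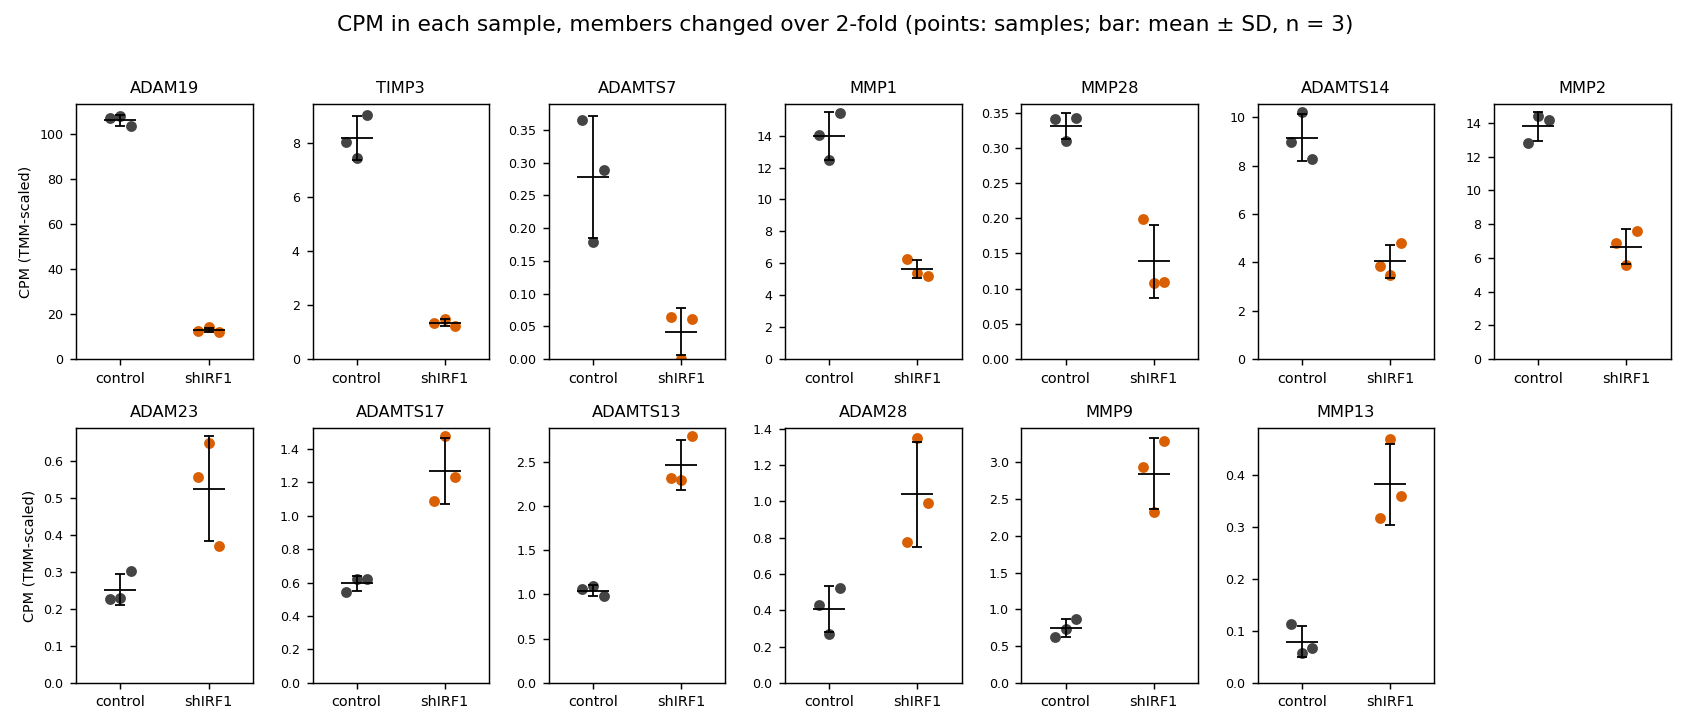
CPM (y axis, TMM-scaled, from 0) of the 13 members that passed an adjusted p of 0.05 with a change of over 2-fold, 1 panel per gene, with a point per sample and mean ± SD (n = 3 per group). Control samples are grey and shIRF1 samples orange, the upper row holds the 7 lower and the lower row the 6 higher members, and in each panel the groups do not overlap.

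Of the 6 membrane-type MMPs, all tested, 2 rose, 1 fell and 3 were not called. The 50% called were close to the 50.5% of all genes tested, and below the 63.6% of those with a mean of at least 1 CPM. MMP14, which cleaves pericellular collagen and activates pro-MMP2, was the most abundant MMP at 576, 635 and 596 CPM in control and 590, 559 and 565 CPM in shIRF1 samples. The groups overlapped, and the log2 fold change of −0.076 ± 0.046 had a 95% interval of −0.17 to 0.022 (adjusted p = 0.193). MMP16 likewise was not called (−0.045 ± 0.054, 95% interval −0.16 to 0.069, adjusted p = 0.53), and MMP25, an anchored enzyme of leukocytes, was under 1 CPM and not called. MMP15 rose from 5.35 ± 0.18 to 8.73 ± 1.35 CPM (0.72 ± 0.098, adjusted p = 7.83e-06), and MMP24 from 3.25 ± 0.066 to 4.95 ± 0.35 CPM (0.61 ± 0.093, adjusted p = 2.49e-05). MMP24 shares 18.1% of its exonic bases with the antisense gene MMP24OS. MMP17, which is held at the membrane by a lipid anchor, fell from 4.83 ± 0.59 to 2.58 ± 0.29 CPM (−0.89 ± 0.11, adjusted p = 3.66e-06).

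Among the remaining MMPs, MMP11 and MMP28 fell. MMP11, a stromelysin known from the stroma of breast carcinomas, went from 3.31 ± 0.32 to 2.13 ± 0.17 CPM (−0.63 ± 0.12, adjusted p = 1.95e-04). MMP28, epilysin, was at 0.341, 0.310 and 0.342 CPM in control and 0.198, 0.108 and 0.109 CPM in shIRF1 samples, from 25, 6 and 18 counts in the latter. Its change on the log2 scale, −1.22 ± 0.36, passed the test (adjusted p = 0.00955), and without shIRF1 replicate 3 it was −1.01 and did not pass (0.0545). MMP19 and MMP21 were under 1 CPM and were not called.

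Summed over the family, MMP RNA was at 759, 809 and 762 CPM in control and 754, 715 and 724 CPM in shIRF1 samples. The lowest control sum lay just above the highest silenced one, so the groups did not overlap, by a small margin.

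In the ADAM family, 22 genes were listed and 15 tested, of which 5 were higher, 4 lower and 6 not called. The 60% called lay between the 50.5% of all genes tested and the 63.6% of those with a mean of at least 1 CPM. The sheddases with the highest levels rose modestly. ADAM9 was at 606, 612 and 615 CPM in control and 749, 842 and 789 CPM in shIRF1 samples, and ADAM12, which is known to cleave insulin-like growth factor binding proteins and HB-EGF, was at 253, 274 and 273 CPM against 362, 376 and 390 CPM. In both genes every silenced sample exceeded every control. The log2 fold changes were 0.38 ± 0.047 (adjusted p = 2.87e-06) for ADAM9 and 0.50 ± 0.046 (adjusted p = 7.54e-08) for ADAM12. With ADAM19 falling, the summed CPM of the family still went from 1280, 1306 and 1316 in control to 1420, 1534 and 1491 in shIRF1 samples.

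ADAM10 and ADAM17 are the most studied sheddases, acting on Notch, cadherins, TNF and EGF receptor ligands. ADAM10 was at 116, 115 and 109 CPM in control and 121, 129 and 120 CPM in shIRF1 samples (0.12 ± 0.044, adjusted p = 0.0293). ADAM17 was at 81.1, 79.8 and 81.3 CPM in control and 73.6, 76.3 and 75.0 CPM in shIRF1 samples (−0.11 ± 0.040, adjusted p = 0.0334). In both the groups did not overlap, but the changes were small and their calls did not hold throughout. ADAM10 lost its call without control replicate 2 (0.0637), without control replicate 3 (0.0762) and without shIRF1 replicate 2 (0.0905). ADAM17 lost its call under 10 of 14 alternatives, with an adjusted p up to 0.244. These included 3 scalings, both other filters and the removal of any 1 replicate other than shIRF1 replicate 2. Of its exonic bases, 12.3% are shared with IAH1 on the opposite strand.

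ADAM15, which carries an integrin-binding RGD sequence in its disintegrin domain, fell from 112 ± 10.3 to 90.04 ± 4.01 CPM (−0.31 ± 0.057, adjusted p = 1.81e-04). ADAM28 and ADAM23 rose from low levels. ADAM28, first known from lymphocytes, was at 0.430, 0.269 and 0.523 CPM in control and 0.778, 1.35 and 0.990 CPM in shIRF1 samples (1.30 ± 0.26, adjusted p = 4.89e-04). ADAM23 was at 0.227, 0.229 and 0.302 CPM in control and 0.556, 0.649 and 0.371 CPM in shIRF1 samples. Its groups did not overlap, and its log2 fold change of 1.004 ± 0.30 (adjusted p = 0.0103) placed it at the 2-fold limit.

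ADAM23 belongs with ADAM11 and ADAM22 to the members that are known to lack protease activity and to act in cell adhesion, mainly in neurons. ADAM11 fell from 3.90 ± 0.17 to 2.60 ± 0.36 CPM (−0.57 ± 0.11, adjusted p = 3.16e-04). ADAM22 was at 1.02 ± 0.10 CPM in control samples and 121% of that after silencing, and was not called (0.27 ± 0.17, adjusted p = 0.215). ADAM32 was at 4.40 ± 0.27 and 4.30 ± 0.43 CPM (−0.032 ± 0.098, 95% interval −0.24 to 0.18, adjusted p = 0.815), and its sign changed between scalings. Of the other tested ADAMs, ADAM8, ADAM20, ADAM21 and ADAM33 were under 1 CPM and were not called.

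The ADAMTS family had the largest share of calls among the 4 families, with 13 of 15 tested members called, out of 19 listed. The 13 comprised 9 lower and 4 higher. Among the lower is ADAMTS7, whose call partly follows from the filter. The share called was 86.7%, against 50.5% of all genes tested and 63.6% of those with a mean of at least 1 CPM. The difference between families was not tested. The summed CPM was 353, 356 and 347 in control and 296, 305 and 299 in shIRF1 samples, without overlap. The hyalectanases, which cleave aggrecan and versican, fell in 4 of the 5 tested, of 7 listed (80%, against 26.4% of all genes tested). Those 4 had a mean of at least 1 CPM, and of all genes at that level 34.2% were lower. ADAMTS15 was at 44.6, 43.0 and 46.4 CPM in control and 23.0, 24.1 and 26.2 CPM in shIRF1 samples (−0.87 ± 0.058, adjusted p = 1.4e-09). ADAMTS5, known as a main aggrecanase of cartilage, fell from 4.60 ± 0.83 to 3.01 ± 0.31 CPM (−0.60 ± 0.13, adjusted p = 6.9e-04), and ADAMTS1 from 49.8 ± 3.86 to 39.2 ± 1.35 CPM (−0.35 ± 0.056, adjusted p = 5.31e-05). ADAMTS4 had a smaller change, from 67.8 ± 2.91 to 61.2 ± 1.33 CPM (−0.15 ± 0.044, adjusted p = 0.0098), which did not pass with upper quartile scaling (0.0594), with library size alone (0.0771) or without control replicate 2 (0.101).

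ADAMTS8 was the single tested hyalectanase that was not called (1.23 ± 0.51, adjusted p = 0.0525). This was close to the threshold, and with upper quartile scaling or library size alone ADAMTS8 joined the members higher over 2-fold. It had 15, 6 and 6 counts in control and 24, 8 and 25 in shIRF1 samples, or 0.122, 0.049 and 0.040 against 0.191, 0.144 and 0.152 CPM, without overlap. ADAMTS8 and ADAMTS15 are neighbors on chromosome 11 in opposite orientation, at chr11:130404925-130428993 and chr11:130448974-130476641. The log2 fold changes of these neighbors had opposite signs.

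The procollagen N-proteinases remove the amino propeptide of fibrillar procollagens, a step in fibril assembly. ADAMTS14 was at 8.96, 10.2 and 8.29 CPM in control and 3.84, 3.50 and 4.81 CPM in shIRF1 samples (−1.15 ± 0.11, adjusted p = 1.14e-07), and ADAMTS2 was at 8.04, 8.54 and 8.71 CPM against 5.45, 6.04 and 6.14 CPM (−0.52 ± 0.080, adjusted p = 2.97e-05). ADAMTS3 moved the other way, from 10.7, 10.6 and 12.1 CPM to 15.7, 19.2 and 18.3 CPM (0.67 ± 0.082, adjusted p = 2.49e-06). None of the 3 had overlapping groups.

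Both members known to cleave cartilage oligomeric matrix protein were lower, ADAMTS7 from low counts. ADAMTS12 was at 46.0, 48.1 and 45.2 CPM in control and 31.5, 32.6 and 30.8 CPM in shIRF1 samples (−0.55 ± 0.050, adjusted p = 6.12e-08). ADAMTS7 had 45, 22 and 43 counts in control and 8, 0 and 10 in shIRF1 samples (−2.45 ± 0.53, adjusted p = 8.2e-04). ADAMTS7 passed the filter through the control group alone, so its call partly follows from the filter. The annotation lists pseudogene copies of ADAMTS7, so its counts are uncertain. Of the fibrillin-associated members, ADAMTS10 rose from 4.02 ± 0.21 to 5.38 ± 0.76 CPM (0.43 ± 0.10, adjusted p = 0.0018), and ADAMTS6 was at 86.3 ± 4.46 and 88.4 ± 4.76 CPM and was not called (0.035 ± 0.050, 95% interval −0.071 to 0.14, adjusted p = 0.603).

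ADAMTS13, the protease of von Willebrand factor, rose from 1.05, 1.09 and 0.979 CPM in control to 2.32, 2.29 and 2.79 CPM in shIRF1 samples (1.25 ± 0.14, adjusted p = 6.89e-07). Its gene spans chr9:133414358-133459402 on the plus strand. ADAMTS17 also rose, from 0.544, 0.620 and 0.624 CPM to 1.09, 1.48 and 1.23 CPM (1.06 ± 0.19, adjusted p = 1.24e-04). ADAMTS16 fell from 17.7 ± 0.47 to 14.97 ± 0.52 CPM (−0.24 ± 0.064, adjusted p = 0.00494).

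**Figure D3:**
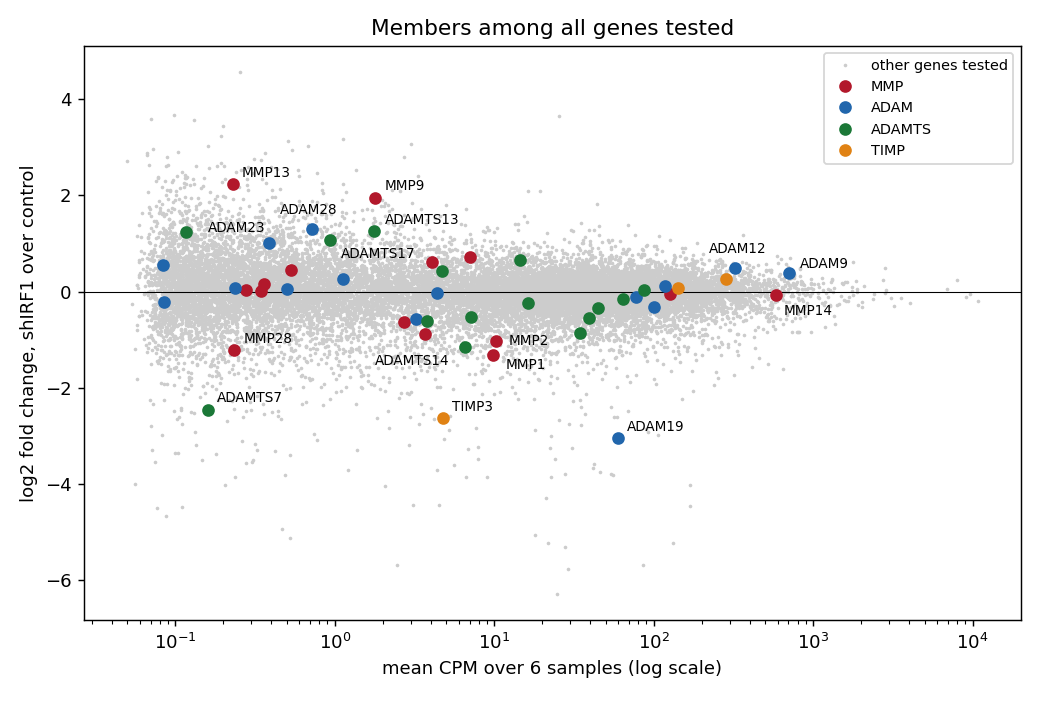
Log2 fold change (y axis, shIRF1 over control) against mean CPM over 6 samples (x axis, log scale) for the 18851 genes tested, in grey, with the 48 tested members colored by family and the members over 2-fold named together with ADAM9, ADAM12 and MMP14. ADAM19 and TIMP3 lie below most genes of like level. Of the most abundant members, MMP14 lies close to 0, and ADAM9 and ADAM12 lie above it at 0.38 and 0.50.

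A test against a 2-fold change, which asks whether a change exceeds that size, was passed by 5 of the 13 members over 2-fold, MMP9 and, from its low counts, MMP13 upward and ADAM19, TIMP3 and MMP1 downward. Of the 13, 6 had a mean under 1 CPM, namely MMP13, MMP28, ADAM23, ADAM28, ADAMTS7 and ADAMTS17. Their levels rest on few counts and their errors were the widest, with an SE of 0.19 for ADAMTS17 to 0.53 for ADAMTS7.

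Scaled to the length of annotated exons, the RNA of the families was dominated by a few genes. This length joins the exons of all annotated transcripts of a gene, with 1541 bases for TIMP1 and 16168 for ADAM10. It can exceed that of the transcripts expressed, so ranks and shares between genes are approximate. TIMP1 was highest at 167 ± 20.7 CPM per kb in control and 201 ± 12.7 in shIRF1 samples, with an overlap between samples. MMP14 came next at 135 ± 6.74 and 128 ± 3.74 CPM per kb, then ADAM9 at 88.4 ± 0.60 and 115 ± 6.74. The ranges of TIMP1 and MMP14 did not overlap in either group, nor did those of MMP14 and ADAM9. ADAM12 followed at 27.0 ± 1.17 and 38.1 ± 1.38 CPM per kb, and TIMP2, at 24.6 ± 1.31 and 26.0 ± 0.48, lay next to it with overlapping values in control samples. The order of these first 5, and of ADAM15 in sixth place, was unchanged after silencing. ADAM19 went from rank 7, at 13.8 ± 0.31 CPM per kb, to rank 19 at 1.68 ± 0.13. TIMP3 went from rank 19, at 1.77 ± 0.17, to rank 33 at 0.291 ± 0.028, and MMP9 from rank 31 to rank 21.

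**Figure D4:**
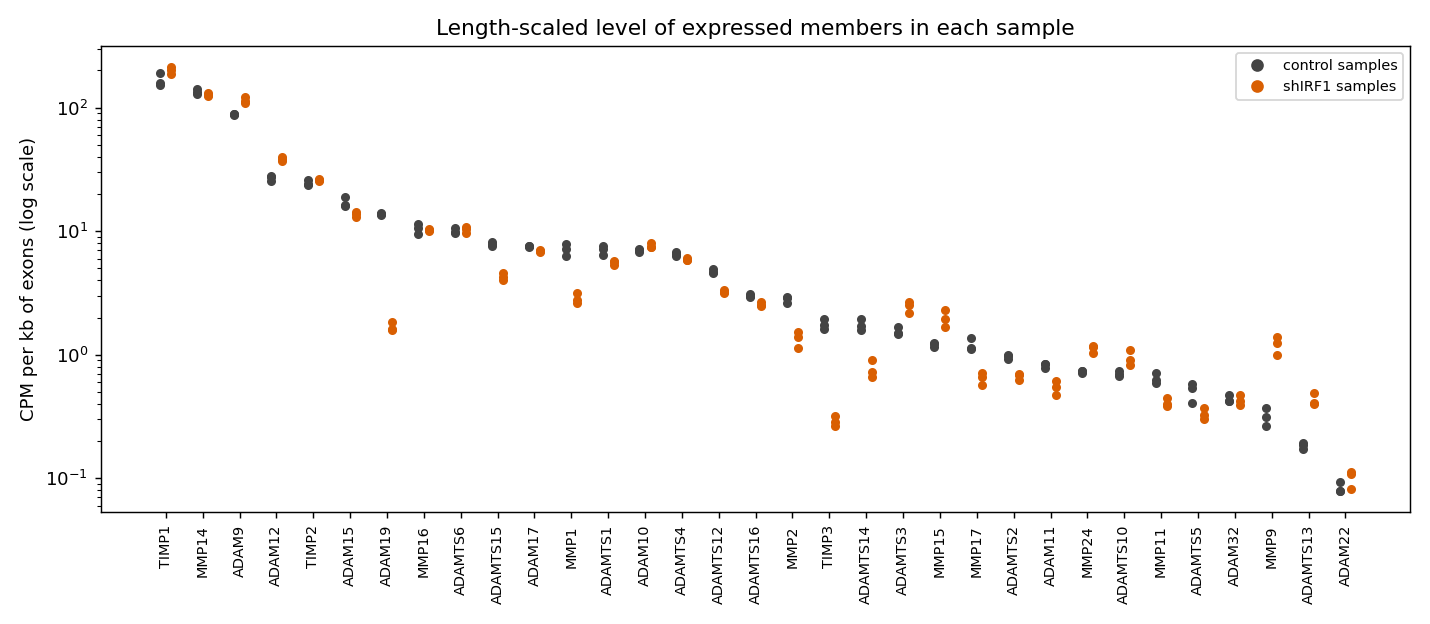
CPM per kb of annotated exons (y axis, log scale) of the 33 members with a mean of at least 1 CPM, ordered by their control mean, with a point per sample, control in grey and shIRF1 in orange. TIMP1, MMP14 and ADAM9 lead in both groups, and the orange points of ADAM19 and TIMP3 lie well below the grey ones.

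By family, MMPs made up 28.5%, 30.2% and 27.1% of the length-scaled total of all members in control and 25.4%, 24.7% and 24.6% in shIRF1 samples, without overlap. ADAMTS genes made up 8.34%, 8.23% and 7.60% against 6.13%, 6.49% and 6.31%, also without overlap. ADAM shares, at 29.4%, 29.5% and 28.1% against 29.1%, 32.5% and 30.9%, and TIMP shares, at 33.8%, 32.1% and 37.2% against 39.4%, 36.3% and 38.2%, overlapped between the groups. These shares carry no test.

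Promoter sequences are shown for 3 members that fell. ADAM19 and TIMP3 are those with the smallest adjusted p. ADAMTS12 is the single one that matched the AP-1 letters TGANTCA among the tested members with a matched promoter. They come from RefSeq (GRCh38.p14), run from 250 bases before to 50 bases after the transcript start, and read 5′ to 3′ on the gene's strand. Capitals mark GC boxes (GGGCGG on either strand) and, in ADAMTS12, the match to TGANTCA as well, in which N is any base. The RefSeq table held 39 promoters of 38 of the 67 members, and 27 of the 39 belong to tested members. MMP1, MMP2, MMP9 and MMP13 were not among them and were not searched.
ADAM19 (chr5:157575726-157576025, minus strand): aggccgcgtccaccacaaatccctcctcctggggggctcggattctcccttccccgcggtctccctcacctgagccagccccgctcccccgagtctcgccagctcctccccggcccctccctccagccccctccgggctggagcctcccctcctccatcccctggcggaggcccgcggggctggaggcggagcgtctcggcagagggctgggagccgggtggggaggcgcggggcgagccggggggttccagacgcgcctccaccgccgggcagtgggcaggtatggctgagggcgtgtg
TIMP3 (chr22:32801455-32801754, plus strand): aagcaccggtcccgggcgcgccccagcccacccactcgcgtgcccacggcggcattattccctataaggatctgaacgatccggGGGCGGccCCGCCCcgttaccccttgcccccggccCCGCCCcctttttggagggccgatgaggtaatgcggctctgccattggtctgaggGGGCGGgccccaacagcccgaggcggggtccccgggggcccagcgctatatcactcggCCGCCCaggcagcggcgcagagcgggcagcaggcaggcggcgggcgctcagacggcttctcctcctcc
ADAMTS12 (chr5:33891941-33892240, minus strand): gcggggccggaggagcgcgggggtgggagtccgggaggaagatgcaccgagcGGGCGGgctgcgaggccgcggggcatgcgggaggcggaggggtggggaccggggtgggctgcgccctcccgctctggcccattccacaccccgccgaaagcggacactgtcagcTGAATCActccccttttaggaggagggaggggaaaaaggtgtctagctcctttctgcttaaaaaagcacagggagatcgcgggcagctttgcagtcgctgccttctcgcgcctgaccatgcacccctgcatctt
ADAM19 is 75.7% G and C with 26 CpG dinucleotides and none of the 4 motifs searched. TIMP3 is 72.7% G and C with 31 CpG dinucleotides and has 5 GC boxes, the first letters of which lie at −166, −158, −131, −76 and −18 from the start. ADAMTS12 has 1 GC box at −198 and the letters TGAATCA, a match to TGANTCA, at −84, and it is 67.0% G and C.

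Both strands of these promoters were searched for 4 motifs. The interferon-stimulated response element, which IRF proteins bind, was spelled as GAAA, any 2 bases and GAAA, and was found in 0 of 39 member promoters and in 3.57% of all 35116 promoters. The NF-kB motif, spelled GGGA, any 2 bases and TTCC, was found in 0 of 39 and in 1.61% of all. AP-1 motifs are long known from MMP promoters. The spelling searched, TGANTCA, takes any base in its middle, so a match need not be a site that AP-1 binds. It was found in 4 of the 39 promoters searched, those of ADAMTS12, MMP7, MMP10 and MMP20, and in 7.71% of all. The letters were TGAATCA in ADAMTS12, MMP10 and MMP20 and TGAGTCA in MMP7. GC boxes were found in 25 of 39 (64.1%) and in 45.0% of all. Among promoters of called members, 8 of 9 of lower and 10 of 11 of higher members had a GC box, so the direction of change did not separate them by these letters. A match is a description of letters, and no match says only that the letters are not in this window. The matches in the printed sequences do not overlap each other.

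Genes that switch these enzymes on or hold them back were counted from lists of known genes. Of 19 genes of activation and inhibition, 16 were tested, 2 rose and 8 fell (12.5% and 50%, against 24.1% and 26.4% of all genes tested). In this list 13 genes had a mean of at least 1 CPM, and of all genes at that level 29.3% were higher and 34.2% lower. PLAU, the urokinase that converts plasminogen into plasmin, an activator of pro-MMPs, fell from 204 ± 5.99 to 82.7 ± 2.36 CPM (−1.30 ± 0.043, adjusted p = 1.69e-13). SPOCK1, a matrix proteoglycan, fell from 221 ± 3.58 to 121 ± 2.88 CPM (−0.87 ± 0.041, adjusted p = 1.58e-11). The genes that rose were FURIN and PCSK7, which belong to the proprotein convertases that cleave the propeptides of ADAMs and membrane-type MMPs. RECK, a membrane-anchored MMP inhibitor, was at 23.0 ± 0.43 and 24.4 ± 1.12 CPM and was not called (adjusted p = 0.288).

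Of 10 partners that guide ADAM10 and ADAM17 to the surface, all tested, 1 rose and 3 fell (10% and 30%), and the 40% called were a smaller share than the 50.5% of all genes tested. The 3 that fell were the tetraspanins TSPAN15, from 2.27 ± 0.40 to 0.653 ± 0.13 CPM (−1.76 ± 0.18, adjusted p = 2.68e-07), TSPAN17 (−0.43 ± 0.044, adjusted p = 2.83e-07) and TSPAN5 (−0.25 ± 0.046, adjusted p = 1.64e-04), all partners of ADAM10. TSPAN14, another such partner, rose from 27.5 ± 1.14 to 30.9 ± 0.27 CPM. The inactive rhomboids RHBDF1 and RHBDF2, which carry ADAM17, were not called.

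Of 10 ligands that sheddases release, 7 were tested, of which 3 fell and 4 were not called, and the 42.9% called were below the 50.5% of all genes tested. CXCL16, a chemokine shed by ADAM10, fell from 4.35 ± 0.53 to 2.02 ± 0.077 CPM (−1.12 ± 0.11, adjusted p = 2.68e-07), and AREG fell from a level under 1 CPM. CX3CL1, with 14, 24 and 38 counts in control and 2 in each shIRF1 sample, passed the filter through the control group alone, so its call partly follows from the filter. HBEGF was at 9.81 ± 0.61 and 10.5 ± 0.20 CPM (adjusted p = 0.246), and NRG1, a substrate of ADAM19, at 157 ± 8.87 and 146 ± 2.93 CPM (−0.11 ± 0.046, adjusted p = 0.0576), and neither was called. NRG1 passed without control replicate 3 (0.00588) and with no filter (0.0383). TGFA and TNF were not tested, at or under 0.0214 CPM on average.

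Of 14 relatives of these families outside the naming rule, 9 were tested, 2 rose and 4 fell (22.2% and 44.4%, against 24.1% and 26.4% of all genes tested). THSD4, an ADAMTS-like protein without protease activity that binds fibrillin, fell from 57.3 ± 0.91 to 12.1 ± 0.62 CPM (−2.24 ± 0.056, adjusted p = 5.82e-15). ADAMTSL4 fell by 0.40 ± 0.12 on the log2 scale (adjusted p = 0.011), a call lost without control replicate 2 (0.0902). ADAMTSL5 fell by 0.39 ± 0.15 (adjusted p = 0.0425), a call lost under 10 of 14 alternatives, among them the removal of any 1 replicate other than shIRF1 replicate 3. BMP1, the procollagen C-proteinase, was at 73.3 ± 3.68 and 75.7 ± 2.88 CPM and was not called (adjusted p = 0.445).

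AP-1 and ETS factors, known regulators of MMP transcription, were the last list. All 12 were tested, 1 rose and 7 fell. FOSL1 fell from 212 ± 10.9 to 130 ± 11.4 CPM (−0.70 ± 0.057, adjusted p = 1.49e-08), ETS2 by 0.66 ± 0.050 on the log2 scale (adjusted p = 6.9e-09) and ETV1 by 0.57 ± 0.054 (adjusted p = 1.27e-07). FOSB rose, and FOSL2, ETS1, FOS and JUND were not called. The shares called higher and lower were 8.33% and 58.3%. All 12 genes had a mean of at least 1 CPM, and of all genes at that level 29.3% were higher and 34.2% lower. None of the list shares was tested against other genes.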

How the data were processed

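The deposited table of the authors holds raw counts, 1 row per gene symbol, for 6 samples. Per the labels, the processing tools included CASAVA 1.8.2, STAR 2.7.9a, featureCounts and DESeq2 1.24.0, with GRCh38.p7 as build. The strand setting and the treatment of read pairs in counting are not given in the sources used here. p-values measure the spread between these samples, which the labels do not tie to separate experiments.

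Here, the quasi-likelihood test of edgeR (version 4.0.16 under R 4.3.3) was fitted to the 18851 genes that passed filterByExpr (minimum count 10), with TMM scaling, group as single factor and Benjamini-Hochberg adjustment over all of them. The fit was tested on simulated data. Levels are TMM-scaled CPM, mean ± SD over 3 samples per group. The SE of a log2 fold change was derived as the absolute change over the root of the F statistic. Floors in CPM cover counting error only. Exon lengths and positions came from GENCODE release 29, in which all 67 members were found, and promoters from RefSeq. Protein sequences were not used here, so the planned split of ADAMs by active site was left out.

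The alternatives were DESeq2 1.42.0, 3 other scalings, no filter, at least 1 CPM in at least 3 samples, halved counts, glmTreat with a 2-fold limit, a replicate block, and leaving out each replicate. Named genes were IRF1, members with a mean of at least 1 CPM or an adjusted p under 0.05, and up to 3 genes per list with the smallest adjusted p and a mean of at least 1 CPM, 1 of which is not reported here. Others (untested or uncalled members, and FURIN, PCSK7, RECK, TSPAN14, RHBDF1, RHBDF2, AREG, CX3CL1, TGFA, TNF, BMP1, FOSB, FOSL2, ETS1, FOS and JUND) were named after their values were seen. The members, lists and tests were chosen with earlier results of these data known.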

Additional observations from a re-analysis of the deposited data

How the results depend on the processing

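Of 541 values recomputed for the 39 named members, 514 kept both sign and call, 18 lost a call, 3 gained one and 6 changed sign. The sign changes were those of 2 uncalled genes. ADAM32 was at 0.012 with upper quartile scaling and 0.019 with library size alone, and between −0.12 and 0.041 when 1 replicate was left out. MMP16 was at 0.0053 with library size alone and between −0.11 and 0.013 when 1 replicate was left out. Members higher over 2-fold numbered 3 instead of 6 when at least 1 CPM in at least 3 samples was asked for, since fewer low genes were then tested, and 2 with glmTreat. Members lower over 2-fold numbered 3 instead of 7 with glmTreat. When 1 replicate was left out, members called numbered 13 to 15 higher and 17 to 19 lower, and over 2-fold 4 to 6 and 6 to 7. DESeq2 called 13 higher and 19 lower.

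Replicate numbers are shared between the groups. Over all genes, same-numbered samples did not deviate together, with correlations of 0.014, 0.025 and −0.0072. Over members the correlations were 0.32, 0.043 and −0.032, so the samples of replicate 1 deviated together to some degree. From the values over all genes, the samples were not taken as pairs. With the replicate number as a block, 14 members were higher and 19 lower, 5 and 7 of them over 2-fold, and no call of a named member was lost or gained.

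At this depth, calls under 1 CPM rest on few counts, and shIRF1 replicate 2 had the fewest counts.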
